A study of Mus musculus with 23 samples.

Results

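The miR-221 and miR-222 cluster gives 4 mature miRNAs in the mouse liver: mmu-miR-221-3p and mmu-miR-222-3p, which share a seed, and mmu-miR-221-5p and mmu-miR-222-5p, which come from the opposite arms of the same hairpins. The prefix mmu, for the mouse, is mostly left out hereafter. They are 4 of the 1218 mature miRNAs counted, and all 4 were among the 386 that passed the filter on low counts. The cluster was chosen by name, with its changes against the reference group in these data already known. Its values in HFoleic vs. reference and HFepa vs. reference are therefore given as a description, without p-values or calls. The comparison of HFepa with HFoleic was not itself used in the choice and was tested. It follows from the known changes of both groups against the reference group, however. Its p-values for the members and their ratios are therefore not independent of the choice.

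The data are small RNA libraries from the livers of 23 male F3 mice of the C57bl/6J strain, with 1 library for each mouse. The 8 reference mice came from the control lineage, bred over generations on a growing diet with high-oleic sunflower oil, and then received a low-fat diet. The 8 HFoleic mice came from the same lineage and received a high-fat, high-sucrose diet as an obesogenic challenge. The 7 HFepa mice received this obesogenic diet too, but came from the omega 3 lineage, whose growing diet held a fish oil rich in eicosapentaenoic acid (EPA). All livers were taken in the fasting state, and omega 3 mice on the low-fat diet were not analysed here, so in HFepa vs. reference the lineage and the diet cannot be told apart. The ages of the mice are not given in the sources used here.

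The libraries carry the numbers 1 to 23 in their titles. All reference libraries are numbered 1 to 8 and all HFepa libraries 16 to 22, whereas the HFoleic libraries are numbered 9 to 15 and 23. Library totals were 5242218 to 8139344 counts for reference mice, 4340903 to 7220112 for HFoleic mice and 3725432 to 4947990 for HFepa mice, with a median of 6187441 in libraries 1 to 11 and of 4513068.5 in libraries 12 to 23. The labels do not say what the number stands for. Libraries 1 to 11 and 12 to 23 differed in many miRNAs within the HFoleic group itself, so values by library number are given beside those over all libraries. In HFepa vs. reference the library number and the group cannot be told apart. The 5 hepatocyte markers summed to a median of 320000 CPM (counts scaled to a common library total by edgeR's TMM factors) in reference libraries, 326300 in HFoleic libraries and 306400 in HFepa libraries. Library 4 held the most muscle markers (214.9 CPM against a reference median of 5.97) and library 5 the most pancreas markers (2021 CPM against a reference median of 17.2). Library 3 held the most stellate cell (42500 CPM), leukocyte (3556 CPM) and biliary markers (1094 CPM), against reference medians of 26120, 2210 and 190.9 CPM.

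The hairpins of miR-221 and miR-222 lie close together on the X chromosome and are transcribed as 1 precursor RNA. Each hairpin is cut by Drosha and Dicer into a short duplex, of which the guide strand is kept by an Argonaute protein and the passenger strand is mostly lost. The 3p strands are the usual guides. They repress the cell cycle inhibitor Cdkn1b (p27), the metalloproteinase inhibitor Timp3 and the receptor Kit, and they are known in endothelium, in activated stellate cells and in liver tumours. A rise of the cluster has been described in steatohepatitis and liver fibrosis.

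The mature sequences are shown because the members divide by them into a pair with 1 seed and a passenger strand with another. The lines below are written 5′ to 3′ as RefSeq gives them for GRCm38.p6, with the seed, bases 2 to 8, in capitals. The table matched 3 of the 4 members, and miR-222-5p is named only.
miR-221-3p: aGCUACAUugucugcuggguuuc
miR-222-3p: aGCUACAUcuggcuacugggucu
miR-221-5p: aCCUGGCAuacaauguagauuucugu

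miR-221-3p (chrX:19146307-19146329) and miR-222-3p (chrX:19146901-19146923), both on the minus strand and 23 bases long, have the same first 8 bases. Over their whole length 11 positions are identical and 12 differ. Counted from 1 at the 5′ end, with the base of miR-221-3p first, these are U9C, G10U, U11G, C12G, U13C, G14U, C15A, U16C, G17U, U20G, U22C and C23U. A read of the full length is therefore not shared between them. miR-221-5p (chrX:19146344-19146369) is 26 bases long and has a different seed. RefSeq lists 1 further mature miRNA with the seed of the guides, miR-1928 on chromosome 1, which was not analysed here.

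The hairpins are shown to place the arms that were counted, with the arms that have a RefSeq entry in capitals. Mir221 spans 95 bases (chrX:19146294-19146388) and Mir222 spans 79 bases (chrX:19146893-19146971), both on the minus strand with 504 bases between them. No other annotated gene overlaps either hairpin, and the nearest, the processed transcript Gm14636, lies 10010 bases away.
Mir221: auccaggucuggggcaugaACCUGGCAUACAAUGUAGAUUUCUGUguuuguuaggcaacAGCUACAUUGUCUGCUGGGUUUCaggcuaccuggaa
Mir222: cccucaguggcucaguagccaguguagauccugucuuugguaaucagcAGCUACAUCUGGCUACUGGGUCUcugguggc
In Mir221 the 5p arm takes bases 20 to 45 and the 3p arm bases 60 to 82 of the hairpin. In Mir222 the 3p arm takes bases 49 to 71.

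The members differed widely in level. Since a read covers a whole miRNA, levels in CPM do not depend on its length. Over all 23 libraries mmu-miR-221-3p had a mean of 380.2 CPM (SD 40.0), mmu-miR-222-3p 115.5 CPM (SD 31.7), mmu-miR-221-5p 26.3 CPM (SD 11.6) and mmu-miR-222-5p 3.26 CPM (SD 0.880). These means ranked 83, 123, 204 and 329 among the 386 miRNAs tested. The ranges of the members over the 23 libraries did not overlap, so the order was the same in every library. How well each sequence is ligated and amplified was not measured.

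In HFoleic vs. reference edgeR's quasi-likelihood test called 48 of 386 miRNAs (12.4%), with 19 higher (4.92%) and 29 lower (7.51%). Such a call needs both an absolute log2 fold change over 0.25 and an adjusted p under 0.05. In HFepa vs. reference 61 of 386 miRNAs were called (15.8%), of which 20 were higher (5.18%) and 41 lower (10.6%). As these comparisons were used in the choice of the cluster, no calls are given for its members in them. In HFepa vs. HFoleic 0 of 386 miRNAs were called by edgeR (0.0%), and 22 had an unadjusted p under 0.05 (5.7%). DESeq2 and limma called 0 in HFepa vs. HFoleic as well.

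miR-221-3p, the most abundant guide strand of the cluster, had similar mean levels in the 3 groups. Its level ran from 329.2 to 420.1 CPM for the reference (median 376.4), from 334.4 to 455.3 in HFoleic (median 395.9) and from 316.7 to 419.3 in HFepa (median 362.0). Of the 8 HFoleic libraries, 4 were above the highest library of either other group, namely libraries 9, 10, 11 and 14 (427.6, 446.7, 455.3 and 425.8 CPM), and the others lay within the reference range. How many of all tested miRNAs had as many HFoleic libraries above both other groups was not counted. The mean was 375.4 ± 33.5 CPM in reference mice (SD, n = 8), 395.5 ± 48.1 in HFoleic (SD, n = 8) and 368.1 ± 36.6 in HFepa (SD, n = 7). The log2 fold change was 0.08 (SE 0.08) in HFoleic vs. reference and -0.03 (SE 0.08) in HFepa vs. reference. The medians of all tested miRNAs in these comparisons were -0.0024 and -0.06. Among libraries 1 to 11 alone the log2 fold change of miR-221-3p in HFoleic vs. reference was 0.25 (SE 0.08), and the 5 lower HFoleic levels were those of libraries 12 to 15 and 23.

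miR-222-3p, the second guide strand, was lower than the reference group in HFepa, and in HFoleic it was divided. Its level ran from 119.1 to 155.3 CPM in the reference group (median 129.8) and from 75.7 to 97.5 in HFepa (median 91.9), so that all 7 HFepa libraries were below all 8 reference libraries. In HFoleic it was 134.1, 194.9 and 168.2 CPM in libraries 9 to 11, and 84.6, 103.5, 88.0, 84.8 and 98.9 in libraries 12 to 15 and 23. Of the 8 HFoleic libraries, 5 were below the lowest reference library and 2 were above the highest. The mean was 134.7 ± 13.9 CPM in reference mice (SD, n = 8), 119.6 ± 42.02 in HFoleic (SD, n = 8) and 88.8 ± 7.58 in HFepa (SD, n = 7). The log2 fold change was -0.17 (SE 0.15) in HFoleic vs. reference and -0.60 (SE 0.16) in HFepa vs. reference, a ratio of 0.659. The direction depended on the library number: in HFoleic vs. reference the log2 fold change was 0.31 (SE 0.12) in libraries 1 to 11 alone and -0.55 (SE 0.09) without libraries 9 to 11. With a term for the library number, which sets libraries 12 to 23 against libraries 1 to 11, it was 0.30 (SE 0.11) in HFoleic vs. reference and 0.25 (SE 0.15) in HFepa vs. reference. Over all groups, miR-222-3p was 119.1 to 194.9 CPM in libraries 1 to 11 and 75.7 to 103.5 CPM in libraries 12 to 23, with no overlap. The share of the 386 tested miRNAs that part these library classes, or HFepa from the reference group, without overlap was not counted.

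miR-221-5p, the passenger strand of the miR-221 hairpin, was the strongly changed member. Its level in reference libraries 1 to 8 was 13.7, 15.7, 15.2, 12.2, 14.3, 18.3, 19.8 and 18.9 CPM. In HFoleic it was 19.8, 19.7 and 19.2 CPM in libraries 9 to 11, then 41.4, 46.2, 51.1 and 44.3 in libraries 12 to 15 and 27.1 in library 23. In HFepa libraries 16 to 22 it was 34.7, 35.2, 35.9, 20.7, 33.5, 22.9 and 23.8 CPM. All 7 HFepa libraries were above the highest reference library, and so were 5 of the 8 HFoleic libraries, those numbered 12 to 15 and 23. The 3 other HFoleic libraries lay within the reference range, at its upper end. How many of the 386 tested miRNAs had all HFepa libraries, or as many HFoleic libraries, beyond the reference range was not counted. The mean was 16.03 ± 2.71 CPM in reference mice (SD, n = 8), 33.6 ± 13.5 in HFoleic (SD, n = 8) and 29.5 ± 6.71 in HFepa (SD, n = 7). The log2 fold change was 1.06 (SE 0.21) in HFoleic vs. reference, a 2.09-fold higher level, and 0.88 (SE 0.22) in HFepa vs. reference, a 1.84-fold higher level. These were the fifth and eleventh highest of the 386 miRNAs tested.

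The level of miR-221-5p differed by library number. It was not alike within libraries 12 to 23, with 20.7 CPM in library 19 and 51.1 CPM in library 14. Within the HFoleic group, whose mice had the same lineage and diet, it was 19.6 ± 0.301 CPM in libraries 9 to 11 (SD, n = 3) and 42.01 ± 9.07 in libraries 12 to 15 and 23 (SD, n = 5). Among libraries 1 to 11 alone, in HFoleic vs. reference the log2 fold change was 0.29 (SE 0.16). With a term for the library number it was 0.29 (SE 0.19) in HFoleic vs. reference and -0.22 (SE 0.26) in HFepa vs. reference, where it changed sign. This last value rests on the division within HFoleic alone, because no HFepa library is numbered below 12 and no reference library above 11. The cause of the difference by library number was not tested.

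miR-222-5p, the passenger strand of the miR-222 hairpin, was near the limit of what this depth can show. It had 8 to 31 counts in a library. The lowest count, 8 in library 19, has an exact 95% Poisson interval of 3.45 to 15.8, which covers counting error only. Its level ran from 2.27 to 4.62 CPM for the reference (median 3.52), from 1.82 to 4.75 in HFoleic (median 3.35) and from 1.90 to 3.79 in HFepa (median 2.96). The groups overlapped, and the spread in the reference group (a coefficient of variation of 25.2%) was little above that of counting alone (21.3%). For miR-221-3p the same values were 8.93% and 2.03%. The mean of miR-222-5p was 3.45 ± 0.867 CPM in reference mice (SD, n = 8), 3.41 ± 0.95 in HFoleic (SD, n = 8) and 2.88 ± 0.815 in HFepa (SD, n = 7). The log2 fold change was -0.02 (SE 0.20) in HFoleic vs. reference and -0.26 (SE 0.21) in HFepa vs. reference. With the term for the library number these were -0.02 (SE 0.27) and -0.27 (SE 0.37), and in libraries 1 to 11 alone the HFoleic value was -0.02 (SE 0.24).

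**Figure D1:**
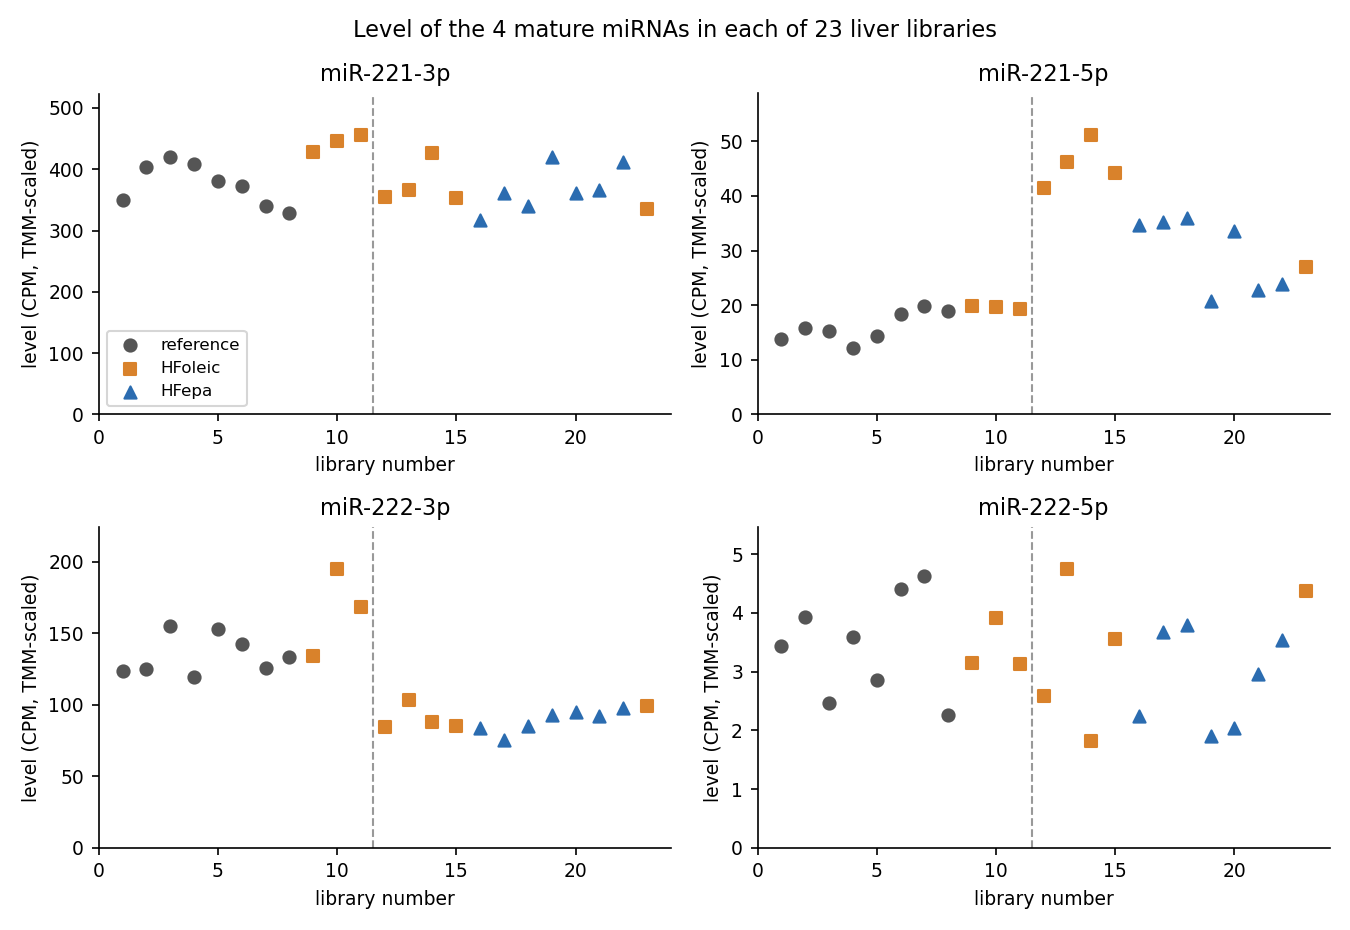
Level of each member in CPM (y axis, TMM-scaled, from 0) against the library number (x axis), with 1 point for each of 23 mice and a dashed line between libraries 11 and 12. The level of miR-221-5p is 12.2 to 19.8 CPM left of the line and 20.7 to 51.1 right of it, that of miR-222-3p is 119.1 to 194.9 left of it and 75.7 to 103.5 right of it, and miR-222-5p shows no such step.

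The same division was seen for other miRNAs, and it was large for miR-221-5p and miR-222-3p but not for miR-221-3p and miR-222-5p. Between HFoleic libraries 12 to 15 and 23 and HFoleic libraries 9 to 11 the mean log2 level of miR-221-5p differed by 1.06, which ranked 15 of 386 from the highest. That of miR-222-3p differed by -0.84, which ranked 14 from the lowest, that of miR-221-3p by -0.28 and that of miR-222-5p by -0.05. Over all 386 miRNAs the median of this difference was 0.03, and the 5th to 95th percentile was -0.68 to 0.78. Levels did not overlap between the 2 sets of HFoleic libraries for 3 of the 4 members (miR-222-5p was the exception) and for 72 of 386 miRNAs tested (18.7%).

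HFepa vs. HFoleic compares the lineages under the same obesogenic diet. None of the members passed the test. miR-222-3p, among the 22 miRNAs with an unadjusted p under 0.05, had a log2 fold change of -0.43 (SE 0.16, adjusted p = 0.525 by edgeR, over 386 miRNAs). For miR-221-5p it was -0.18 (SE 0.22, adjusted p = 0.968 by edgeR), with 4 of 8 HFoleic libraries above the highest HFepa library. How many of the 386 tested miRNAs had as many above it was not counted. The values of miR-221-3p (-0.10, SE 0.08, adjusted p = 0.946 by edgeR) and miR-222-5p (-0.25, SE 0.21, adjusted p = 0.968 by edgeR) were within 2 standard errors of 0. In libraries 12 to 23 alone miR-221-3p had 0.01 (SE 0.10) and miR-222-5p -0.24 (SE 0.27).

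In libraries 12 to 23, where both obesogenic groups are present, the values of miR-222-3p and miR-221-5p were different from those over all libraries. There miR-222-3p had a log2 fold change of -0.04 (SE 0.10, adjusted p = 0.935 by edgeR) in HFepa vs. HFoleic. miR-221-5p had -0.51 (SE 0.17, adjusted p = 0.767 by edgeR). The miR-221-5p levels were 20.7 to 35.9 CPM in the 7 HFepa libraries and 27.1 to 51.1 in the 5 HFoleic libraries, which overlap through library 23 alone. How often other tested miRNAs overlap as little was not counted. With a term for the library number over all 23 libraries the log2 fold change of miR-221-5p in HFepa vs. HFoleic was likewise -0.51 (SE 0.17, adjusted p = 0.514 by edgeR). After adjustment neither value passed the threshold.

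**Figure D2:**
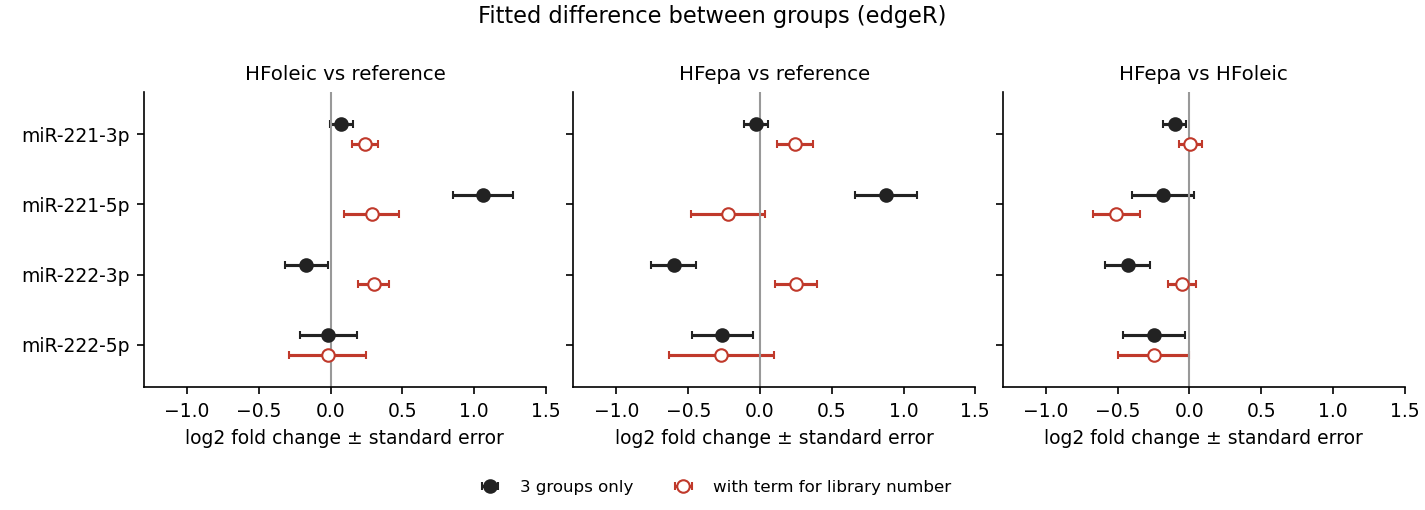
Log2 fold change with its standard error (x axis) of the 4 members in the 3 comparisons, fitted by edgeR with the 3 groups only (filled) and with a term for the library number (open). With the term, miR-221-5p goes from 1.06 to 0.29 in HFoleic vs. reference and from 0.88 to -0.22 in HFepa vs. reference, and miR-222-3p goes from -0.60 to 0.25 in HFepa vs. reference.

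A ratio of strands within a library does not depend on how the library is scaled. In the reference group there were 3.00 to 5.81 miR-221-5p reads for 100 miR-221-3p reads (median 3.92). In HFoleic there were 4.22 to 4.62 in libraries 9 to 11 and 8.09 to 12.6 in libraries 12 to 15 and 23, and in HFepa there were 4.94 to 10.9 (median 9.27). The guide strand was thus in excess in every library, and the share of the passenger strand was higher in libraries 12 to 15 and 23 than in any reference library. The mean log2 ratio was 0.90 (SE 0.28) higher in HFoleic and 0.89 (SE 0.21) higher in HFepa than in the reference group. In libraries 1 to 11 alone the difference between HFoleic and reference was 0.06 (SE 0.13). Between HFepa and HFoleic it was -0.0072 (SE 0.31), with p = 0.989 in a two-sided exact permutation test. In libraries 12 to 23 this difference was -0.51 (SE 0.21), with p = 0.0530 in the same exact permutation test.

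The guide strands shifted against each other, with miR-221-3p the more abundant in every library. For 100 miR-221-3p reads there were 29.2 to 40.6 miR-222-3p reads in reference libraries (median 37.0), 20.7 to 43.6 in HFoleic (median 28.9) and 20.9 to 26.5 in HFepa (median 25.1). All HFepa libraries were below all reference libraries, and how often other pairs of miRNAs part in this way was not counted. The HFoleic libraries 9 to 11 had 31.4 to 43.6 and the HFoleic libraries 12 to 15 and 23 had 20.7 to 29.6. The mean log2 ratio differed from the reference group by -0.30 (SE 0.14) in HFoleic and by -0.57 (SE 0.08) in HFepa, and by 0.05 (SE 0.15) in HFoleic vs. reference in libraries 1 to 11. Between HFepa and HFoleic it differed by -0.26 (SE 0.13), with p = 0.0793 in a two-sided exact permutation test. Without library 14, 1 of the HFoleic mice, the value was -0.33 and the exact permutation p was 0.0175. In libraries 12 to 23 the difference was -0.05 (SE 0.10), with an exact permutation p of 0.563.

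The arms of the miR-222 hairpin gave 1.59 to 3.67 miR-222-5p reads for 100 miR-222-3p reads in reference libraries (median 2.90), 1.86 to 4.59 in HFoleic (median 2.70) and 2.06 to 4.86 in HFepa (median 3.23). The groups overlapped. The mean log2 ratio differed by 0.14 (SE 0.26) between HFepa and HFoleic, with p = 0.585 in a two-sided exact permutation test. In libraries 12 to 23 it turned to -0.15 (SE 0.27), with an exact permutation p of 0.596. Within HFoleic there were 1.86 to 2.35 reads in libraries 9 to 11 and 2.07 to 4.59 in libraries 12 to 15 and 23. Against the reference group the log2 ratio in HFoleic differed by 0.21 (SE 0.25) over all libraries and by -0.28 (SE 0.19) in libraries 1 to 11.

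**Figure D3:**
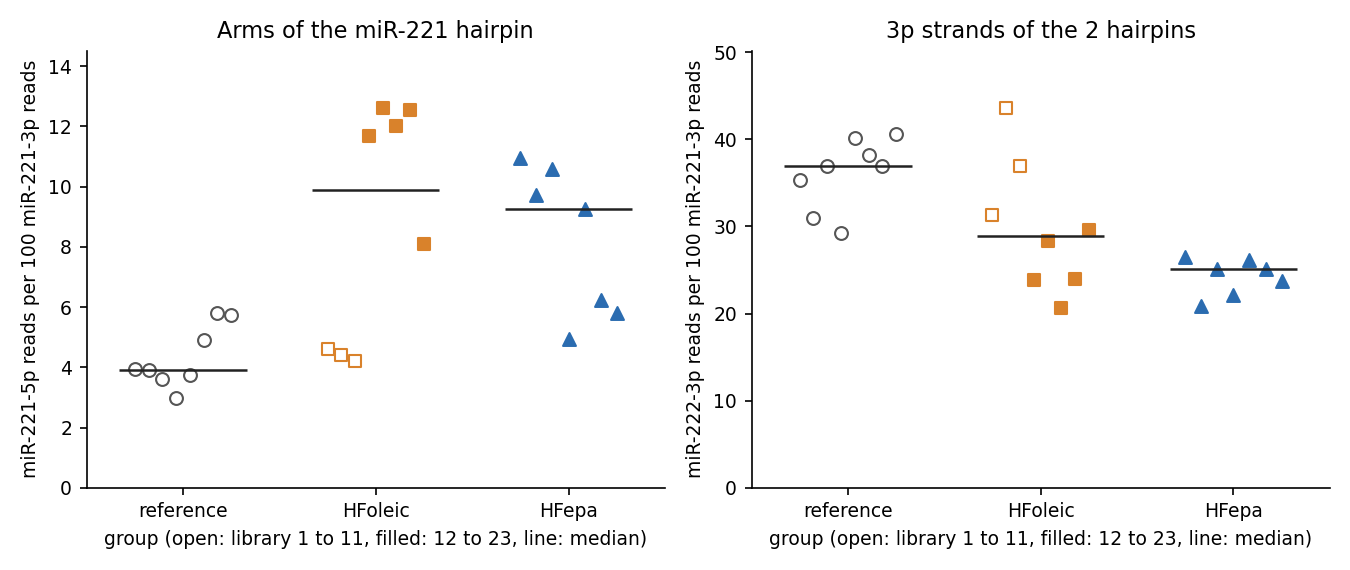
Reads of miR-221-5p (left) and of miR-222-3p (right) for 100 reads of miR-221-3p in each library (y axes, from 0) by group, with open points for libraries 1 to 11, filled points for libraries 12 to 23 and a line at the group median. The open HFoleic points lie within the reference range on the left (4.22 to 4.62) and the filled ones above it (8.09 to 12.6), and on the right the filled HFoleic points reach from 20.7 to 29.6.

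The 2 hairpins were set beside all 100 hairpins for which both arms passed the filter, each described by the change of the log2 ratio of its less abundant to its more abundant arm. In HFoleic vs. reference miR-221 had the second highest change of the 100 (0.90), after miR-362 (1.08) and before miR-145a (0.51). In HFepa vs. reference it had the fourth highest (0.89), after miR-212 (1.11), miR-362 (1.03) and miR-145a (0.92). miR-222 ranked 20 of 100 in HFoleic vs. reference (0.21) and 13 in HFepa vs. reference (0.36). The median of all 100 hairpins was -0.04 in HFoleic vs. reference and -0.05 in HFepa vs. reference, and the 5th to 95th percentiles were -0.65 to 0.41 and -0.70 to 0.52. The calls were split between the arms in both directions: in HFoleic vs. reference 7 less abundant arms were called higher and 6 lower, against 3 and 5 of the more abundant arms. Of all tested miRNAs 4.92% were called higher and 7.51% lower in that comparison.

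The position of miR-221 among the hairpins moved with the library number. Between the HFoleic libraries 12 to 15 and 23 and the HFoleic libraries 9 to 11 its change was 1.35, the second highest of 100, and that of miR-222 was 0.78, which ranked 8. In HFoleic vs. reference in libraries 1 to 11 the change of miR-221 was 0.06 and ranked 31. In HFepa vs. HFoleic in libraries 12 to 23 it was -0.51, the lowest of the 100 hairpins.

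**Figure D4:**
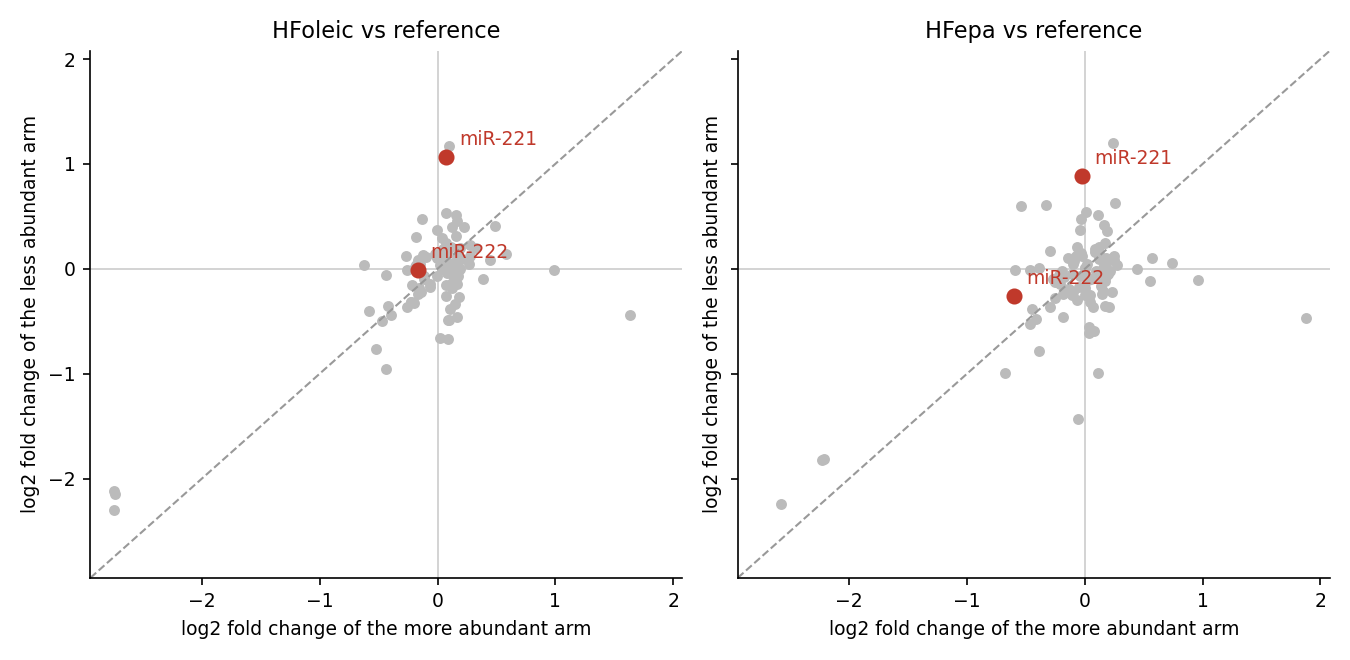
Log2 fold change of the less abundant arm (y axis) against that of the more abundant arm (x axis) for 100 hairpins in HFoleic vs. reference (left) and HFepa vs. reference (right), with a dashed line where both arms change alike. miR-221 lies far above the line (1.06 against 0.08 on the left, 0.88 against -0.03 on the right), and miR-222 lies close to it on the left (-0.02 against -0.17) and above it on the right (-0.26 against -0.60).

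To see how far the members vary together between mice, log2 levels were compared after the group mean was subtracted, for all 6 pairs of members. Over all 23 libraries miR-221-5p and miR-222-3p had r = -0.727 and rho = -0.67, with permutation p of 4e-05 and 0.00077 (adjusted over the 6 pairs, 0.00024 and 0.00315). Without the 2 libraries farthest from the median, 14 and 11, r was -0.64. The arms miR-221-5p and miR-221-3p had r = -0.597 and rho = -0.65 (permutation p = 0.00313 and 0.00105, adjusted 0.00626 and 0.00315), and r = -0.689 without libraries 14 and 11. The guide strands miR-221-3p and miR-222-3p had r = 0.587 and rho = 0.595 (permutation p = 0.00228 and 0.00328, adjusted 0.00626 and 0.00656), and r = 0.51 without libraries 23 and 11.

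These relations did not pass the test within the library classes. For miR-221-5p and miR-222-3p, r was 0.0904 in libraries 1 to 11 (n = 11, adjusted permutation p = 0.952) and -0.522 in libraries 12 to 23 (n = 12, adjusted permutation p = 0.493). For the arms of miR-221, r was -0.595 in libraries 1 to 11 (adjusted permutation p = 0.314) and -0.198 in libraries 12 to 23 (adjusted permutation p = 0.707). For the guide strands, r was 0.268 in libraries 1 to 11 (adjusted permutation p = 0.952) and 0.247 in libraries 12 to 23 (adjusted permutation p = 0.707). The 3 pairs with miR-222-5p had r between -0.183 and 0.0328 over all libraries, with adjusted permutation p of 0.6 to 0.885.

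**Figure D5:**
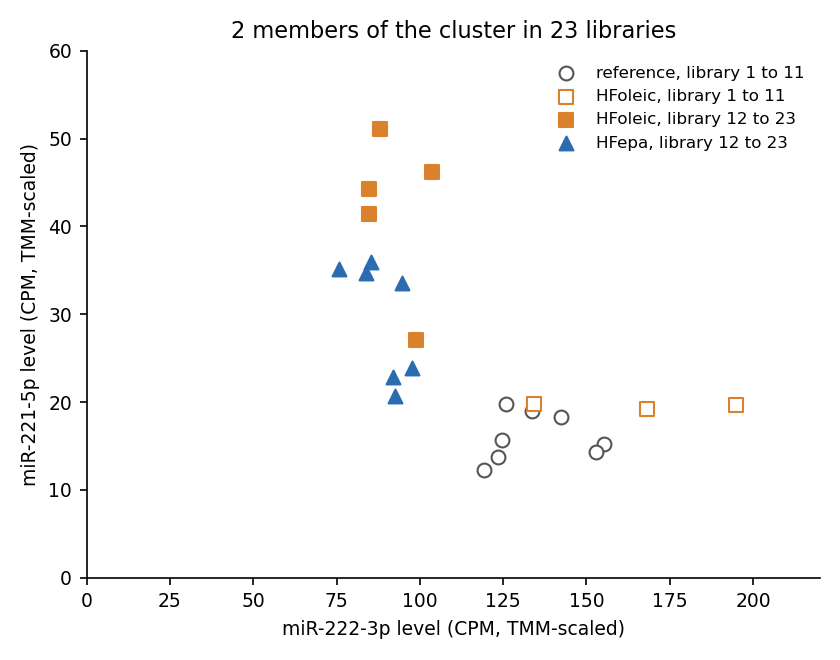
Level of miR-221-5p (y axis) against miR-222-3p (x axis), both in TMM-scaled CPM, in 23 libraries marked by group and library number. Libraries 1 to 11 lie at lower right and libraries 12 to 23 at upper left, and no relation passed the test within either set (r = 0.0904 and -0.522).

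The miRNAs whose levels ran most like those of the members were found over the 23 libraries by Pearson's r of group-centred log2 levels, among the other tested miRNAs of at least 10 CPM, and are given as a description. For miR-221-5p these were miR-99a-5p (r = 0.934), miR-100-5p (0.913) and miR-151-5p (0.889). After the mean of each library class was subtracted too, the values were 0.838, 0.786 and 0.717. miR-99a-5p was 288.4 to 348.0 CPM in the reference group, 330.5 to 337.9 in HFoleic libraries 9 to 11, 489.6 to 1092 in HFoleic libraries 12 to 15 and 23, and 397.4 to 739.7 in HFepa. miR-100-5p was 186.7 to 281.6 CPM in the reference group, 172.5 to 190.6 and 586.8 to 1856 in the same 2 sets of HFoleic libraries, and 308.9 to 1484 in HFepa. miR-151-5p was 594.3 to 703.7, 591.8 to 647.3, 769.5 to 1054 and 819.2 to 950.7 CPM in the same sets. All 3 miRNAs showed the step at library 12 that miR-221-5p showed. As they were picked for running like miR-221-5p over these same libraries, a shared step was favoured by the choice and is no separate evidence.

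For miR-221-3p the most alike were miR-532-5p (r = 0.78), miR-150-5p (0.6) and its own partner miR-222-3p (0.587), which became 0.661, 0.351 and 0.249 after the class means were subtracted. For miR-222-3p they were miR-150-5p (0.709), miR-210-3p (0.677) and miR-98-3p (0.672), which became 0.293, 0.308 and 0.355. For miR-222-5p they were miR-15a-5p (0.649), miR-423-5p (0.619) and let-7g-5p (0.597), and these were nearly the same after the class means were subtracted (0.66, 0.64 and 0.596). The low counts of miR-222-5p limit these values.

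The cluster belongs to the miRNAs described as raised in steatohepatitis and fibrosis, so 2 lists of other miRNAs of liver injury were set beside it. Both lists were chosen with earlier results of these data known. The calls and adjusted p of their miRNAs are therefore given as a description and not as independent tests. Of 10 tested miRNAs described as raised in the injured liver, 1 rose and 1 fell in HFoleic vs. reference. Of all tested miRNAs 4.92% were called higher and 7.51% lower there. miR-33-5p, which lies within the sterol regulator gene Srebf2 and represses the cholesterol exporter Abca1, rose from 7.42 to 11.1 CPM (log2 fold change 0.58, SE 0.17, adjusted p = 0.0278 by edgeR). miR-181b-5p fell from 193.1 to 134.5 CPM (log2 fold change -0.52, SE 0.15, adjusted p = 0.0278 by edgeR). In HFepa vs. reference 0 of the 10 were called by edgeR, where 15.8% of all tested miRNAs were. The abundant miR-21a-5p, a miRNA of activated stellate cells and inflammation, had a log2 fold change of -0.27 (SE 0.10, adjusted p = 0.0850 by edgeR) in HFoleic vs. reference and -0.14 (SE 0.10, adjusted p = 0.385 by edgeR) in HFepa vs. reference. miR-27b-3p, which targets genes of lipid metabolism, had 0.18 (SE 0.05, adjusted p = 0.0288 by edgeR) and 0.17 (SE 0.06, adjusted p = 0.0414 by edgeR), below the fold change threshold. The median of the list was -0.21 in HFoleic vs. reference and -0.08 in HFepa vs. reference, against -0.0024 and -0.06 for all tested miRNAs. No called miRNA of this list was left in HFoleic vs. reference with the term for the library number, in libraries 1 to 11 alone, when only those 2 groups were fitted, without a filter on low counts, with quantile normalization, without library 5 or library 14, or without libraries 4 and 5 together.

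Of 10 miRNAs described as lowered in the injured liver, 1 fell in each comparison with the reference group and 0 rose. These calls too are a description, as the list was chosen with earlier results of these data known. Among all tested miRNAs 7.51% were called lower in HFoleic vs. reference and 10.6% in HFepa vs. reference. The miRNA of the list that fell was miR-150-5p, a miRNA of lymphocytes. Its log2 fold change was -0.94 (SE 0.23, adjusted p = 0.0174 by edgeR) in HFoleic and -1.40 (SE 0.25, adjusted p = 0.00122 by edgeR) in HFepa. It was at 216.9 to 512.3 CPM in the reference group, at 202.7 to 297.0 in HFoleic libraries 9 to 11, at 90.2 to 141.1 in HFoleic libraries 12 to 15 and 23, and at 83.0 to 160.3 in HFepa. Of the list, 0 were called with the term for the library number in either comparison, and in HFoleic vs. reference 0 in libraries 1 to 11 alone, with only those 2 groups fitted or without libraries 4 and 5. In HFepa vs. reference the term left 0 of all tested miRNAs called, as that fit rests on the division within HFoleic alone. The hepatocyte miRNA miR-122-5p had log2 fold changes of -0.0025 (SE 0.12) and -0.00029 (SE 0.12), and the antifibrotic miR-29a-3p 0.04 (SE 0.06) and 0.17 (SE 0.06, adjusted p = 0.0755 by edgeR). The other abundant members of the list, miR-192-5p, miR-194-5p, miR-101a-3p and miR-378a-3p, had log2 fold changes of -0.10 to 0.22 and were not called. The medians of the list were 0.08 in HFoleic and 0.0049 in HFepa vs. reference. In HFepa vs. HFoleic 0 miRNAs of either list were called by edgeR.

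miR-221 and miR-222 are made in several cell types of the liver, and in a whole liver fewer cells of a type cannot be told apart from less RNA per cell. The 2 endothelial markers, both arms of miR-126a, summed to 13880 to 20330 CPM in the reference group, 18210 to 18360 in HFoleic libraries 9 to 11, 19730 to 26000 in HFoleic libraries 12 to 15 and 23, and 19640 to 23670 in HFepa. Their medians were 18830, 18360, 20670 and 20870 CPM in these sets. In the last 2 sets miR-221-5p was higher than in the reference group, whereas miR-222-3p was lower and the median of miR-221-3p was not higher. Of the 2 endothelial markers 1 was called higher in HFepa vs. reference, where 5.18% of all tested miRNAs were. In HFoleic vs. reference 0 were called higher, where 4.92% of all tested miRNAs were. With the term for the library number edgeR called 0 of all tested miRNAs in HFepa vs. reference. That fit rests on the division within HFoleic alone, so nothing is read from it about this marker. The 5 markers of stellate cells and fibroblasts summed to 23450 to 42500 CPM in the reference libraries, 19870 to 28550 in HFoleic and 23480 to 30360 in HFepa. Their reference maximum was that of library 3. Of these 5, 0 were called against the reference group, where 12.4% (HFoleic) and 15.8% (HFepa) of all tested miRNAs were. The 6 leukocyte markers summed to 1760 to 3556 CPM in the reference libraries, 1533 to 2439 in HFoleic and 1543 to 2445 in HFepa, with the reference maximum again in library 3. The 1 leukocyte marker called lower in both comparisons was miR-150-5p, where 7.51% (HFoleic) and 10.6% (HFepa) of all tested miRNAs were called lower. None of the endothelial, stellate cell or leukocyte markers was at 0 in all libraries of a group. Without library 3 the log2 fold change of miR-221-5p was 1.05 in HFoleic and 0.87 in HFepa vs. reference, and that of miR-222-3p was -0.13 and -0.57. The part of these cells in the levels of the cluster was not tested.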

How the data were processed

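Per the labels, libraries were made from total liver RNA with the TruSeq Small RNA kit, and the submitters' processing notes name bcl2fastq 2.17.1.14 and mm10. The authors aligned adapter-trimmed reads with Bowtie in ncPRO-seq and deposited whole-number counts of each mature miRNA, without coordinates. The methods name both GRCm38.p6 and mm9. Group means, 9 comparison columns (fold changes, p-values) and 23 columns of scaled counts that the authors also deposited were not used.

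From the counts, 386 of 1218 miRNAs passed filterByExpr (minimum count 10). A single edgeR 4.0.16 quasi-likelihood model with TMM factors was fitted to the 3 groups in R 4.3.3, with Benjamini-Hochberg adjustment over the 386, and was tested on simulated data first. Calls needed an adjusted p below 0.05 with a log2 fold change beyond 0.25 in size. Log2 levels used a prior count of 2, and ratios are log2 of counts plus 0.5. Correlations used 100000 permutations. Alternatives were DESeq2 1.42.0, quantile normalization with limma 3.58.1, library size and upper-quartile factors, other filters, only the groups compared, library number as a term or division, and each library left out. The random seed was 20200412, and Python 3.11.15, pandas 2.3.3, scipy 1.17.1 and matplotlib 3.10.9 were used.

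The members, lists and library classes were chosen with earlier results of these data known. miRNAs beyond the cluster were named by fixed rules: those with a member's seed, the 3 most alike to each member, the called (up to 4 a list and comparison) or abundant (over 1000 CPM) miRNAs of the injury lists, and the 3 hairpins whose less abundant arm gained most in each comparison with the reference group. The biliary, red blood cell, muscle and pancreas lists served to find libraries that stand apart. Each library is 1 mouse, and no 2 libraries of a group agreed within sampling noise (lowest chi-square per degree of freedom 16.3). PCR duplicates cannot be told from separate molecules, so counting intervals cover counting error only.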

Additional observations from a re-analysis of the deposited data

How the results depend on the processing

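The number of called miRNAs was sensitive to the processing. In comparisons with the reference group it was lowest in the fits with a term for, or a division by, the library number. Several settings also left fewer libraries in a comparison, and what lowered the counts was not tested. In HFoleic vs. reference, 48 were called; it was 25 with DESeq2, 10 with quantile normalization and limma, 29 without a filter, 7 with only the 2 groups fitted, 1 with a term for the library number, 0 in libraries 1 to 11 alone and 6 without libraries 4 and 5. In HFepa vs. reference, 61 were called; it was 24 with quantile normalization, 40 with only the 2 groups, 0 with the term and 30 without libraries 4 and 5. Leaving out 1 library at a time gave 12 to 53 in HFoleic vs. reference (12 without library 5, 24 without 13, 21 without 14, 20 without 15), 32 to 66 in HFepa vs. reference (36 without library 5, 38 without 16, 38 without 18, 32 without 22), and 0 to 1 in HFepa vs. HFoleic (1 without library 19). Without libraries 9 to 11, 57 were called in HFoleic vs. reference and 63 in HFepa vs. reference. Leaving out libraries 4 and 5 or libraries 9 to 11 was chosen after seeing the data.

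Among the members, log2 fold changes in HFoleic vs. reference with the term were 0.29 for miR-221-5p, 0.24 for miR-221-3p and 0.30 for miR-222-3p, and in libraries 1 to 11 alone 0.29, 0.25 and 0.31. Without libraries 9 to 11 miR-222-3p had -0.55. In HFepa vs. reference the term gave -0.22, 0.24 and 0.25, and quantile normalization gave -0.45 for miR-222-3p. In HFepa vs. HFoleic, miR-221-5p had 0.04 with quantile normalization, and miR-221-3p had 0.0049 with the term and 0.01 both in libraries 12 to 23 and without libraries 9 to 11. In libraries 1 to 11 the log2 ratio in HFoleic vs. reference differed by 0.06 for miR-221-5p to miR-221-3p and by 0.05 for miR-222-3p to miR-221-3p. Leaving out 1 library at a time, the log2 fold change of miR-221-5p was 0.94 to 1.18 in HFoleic vs. reference and 0.82 to 0.96 in HFepa vs. reference, and that of miR-222-3p in HFepa vs. reference -0.62 to -0.57. In HFepa vs. HFoleic the ratio of miR-221-5p to miR-221-3p differed by -0.14 to 0.10 and that of miR-222-3p to miR-221-3p by -0.33 to -0.18, which passed the threshold without library 14 only.

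The correlation of the miR-221 arms was -0.416 with library size in place of TMM (adjusted permutation p = 0.0975) and -0.321 with class means subtracted, where miR-221-5p and miR-222-3p had -0.234 and the guide strands 0.249 (adjusted permutation p = 0.418 for all 3). For miR-222-5p, r with miR-221-5p was 0.121 without the 2 farthest libraries, and r with miR-222-3p was -0.008 with library size, -0.008 with class means subtracted and -0.131 without the 2 farthest. Beyond the number of libraries left, the cause of these changes was not tested. With at least 10 counts in every library miR-222-5p was not tested. No paired analysis was possible because replicate numbers only follow the order of the libraries and name no shared litter, cage or day. The low depth of miR-222-5p limits what can be said of its arm ratio.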

Other observations

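Markers of cells not described above were measured as well. The 5 biliary epithelium markers summed to 150.8 to 1094 CPM in the reference group, where the highest value was that of library 3, to 157.1 to 333.2 CPM in HFoleic and to 190.7 to 263.5 CPM in HFepa. Of these 5, 0 were called by edgeR in HFoleic vs. reference, where 12.4% of all tested miRNAs were. In HFepa vs. reference 1 was called lower by edgeR, where 10.6% of all tested miRNAs were. The 3 red blood cell markers summed to 3462 to 8489 CPM in the reference group, 3898 to 6221 CPM in HFoleic and 3495 to 7043 CPM in HFepa. By edgeR 0 of them were called in any comparison. Against the reference group 12.4% (HFoleic) and 15.8% (HFepa) of all tested miRNAs were called. Of 3 muscle markers and 3 pancreas markers, 1 each passed the filter, and both were called lower in each comparison with the reference group by edgeR. Of all tested miRNAs 7.51% were called lower in HFoleic and 10.6% in HFepa vs. reference. In the reference group library 4 had 214.9 CPM of muscle markers and library 5 had 2021 CPM of pancreas markers. Without libraries 4 and 5, the log2 fold change of miR-221-5p was 0.98 in HFoleic vs. reference and 0.80 in HFepa vs. reference, and that of miR-222-3p was -0.17 (SE 0.16) and -0.60 (SE 0.17).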
